A study of Mus musculus with 6 samples.

Results

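The peroxisome proliferator-activated receptors (PPARs), the retinoid X receptors (RXRs) and the PGC-1 coactivators were followed in the sciatic nerve of mice that lack Srebf-1c. The group holds 8 genes, chosen by name with earlier results of these data known. They are the receptors Ppara, Ppard and Pparg, the receptors Rxra, Rxrb and Rxrg, and the coactivators Ppargc1a and Ppargc1b. All 8 were measured, out of 22180 genes tested, each by 1 probe set that carries its symbol alone. Whole sciatic nerves came from 10-month-old mice, and RNA of each sample was hybridised to 1 Affymetrix whole-transcript array. Wild-type littermates gave 3 arrays and Srebf-1c KO mice gave 3. No treatment is named for either genotype, and the labels do not say in which cells the gene was deleted. Whether each array stands for its own mouse is not stated, so a p-value here weighs the spread among arrays, part of which may be technical.

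PPARs are nuclear receptors that bind fatty acids and their derivatives, and each acts on DNA as a pair with an RXR. The pair binds a direct repeat of the motif AGGTCA and switches on genes of fat oxidation, mainly through PPAR alpha and PPAR delta, or of fat storage in adipocytes, through PPAR gamma. RXRs bind retinoids and also pair with the retinoic acid, thyroid hormone, vitamin D and liver X receptors. PGC-1 alpha and PGC-1 beta, made by Ppargc1a and Ppargc1b, have no DNA-binding domain of the receptor kind. They dock on PPARs and other receptors and raise the transcription of mitochondrial genes. SREBP-1c, the protein missing in the KO, drives fatty acid synthesis, so the comparison asks how the regulators of fat use stand where a regulator of fat synthesis is lost.

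The libraries were checked before the members were read. Srebf1, the targeted gene, was lower on every KO array (log2 intensity 8.04 to 8.11) than on every wild-type array (9.53 to 9.70), with a log2 fold change of -1.52 ± 0.11 (SE, limma adjusted p = 0.0497). This matches the titles, although the KO samples carry a wild-type entry in their source label. Of the 14 genes listed as markers of myelinating Schwann cells, 11 were measured, among them Mbp at a log2 intensity of 12.65 to 12.81 and Pmp22 at 13.44 to 13.67. Marker genes of neighbouring tissue differed between arrays. The adipocyte score, averaged over 16 marker genes after each gene's log2 intensities were centred on their mean, was high on wild-type replicate 3 (1.45) and KO replicate 2 (1.31) and ran from -0.91 to -0.35 on the other arrays. The muscle score over 22 genes ran from -0.93 on wild-type replicate 2 to 0.80 on wild-type replicate 1, and from -0.37 to 0.41 in KO nerves. In whole nerve, fewer cells of a type and less RNA per cell cannot be told apart.

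No member of the group passed the test between genotypes. At an adjusted p of 0.05 in limma, 0 of the 8 members were called, where 0.00451% of all genes were. The study's own criterion asks for an unadjusted p under 0.05 and a fold of 1.5 or more. By it, 0 of the 8 were called, where 1.19% of all genes were. The groups overlapped for each of the 8, while 12.3% of all genes had groups that did not overlap. At an unadjusted p under 0.05 alone, 0 of 8 were called against 5.83% of all genes. The mean was lower in KO for 6 members and higher for 2, Ppara and Ppargc1a, and 56.9% of all genes had a lower mean in KO. The median log2 fold change of the members was -0.20, beside -0.032 for all genes. A p that misses the threshold does not show that levels were equal: the 95% intervals of Pparg, Rxrb, Rxrg and Ppargc1b held a 1.5-fold fall and those of Pparg and Ppargc1a a 1.5-fold rise, while those of Ppara, Ppard and Rxra held neither, Ppara by a narrow margin.

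**Figure D1:**
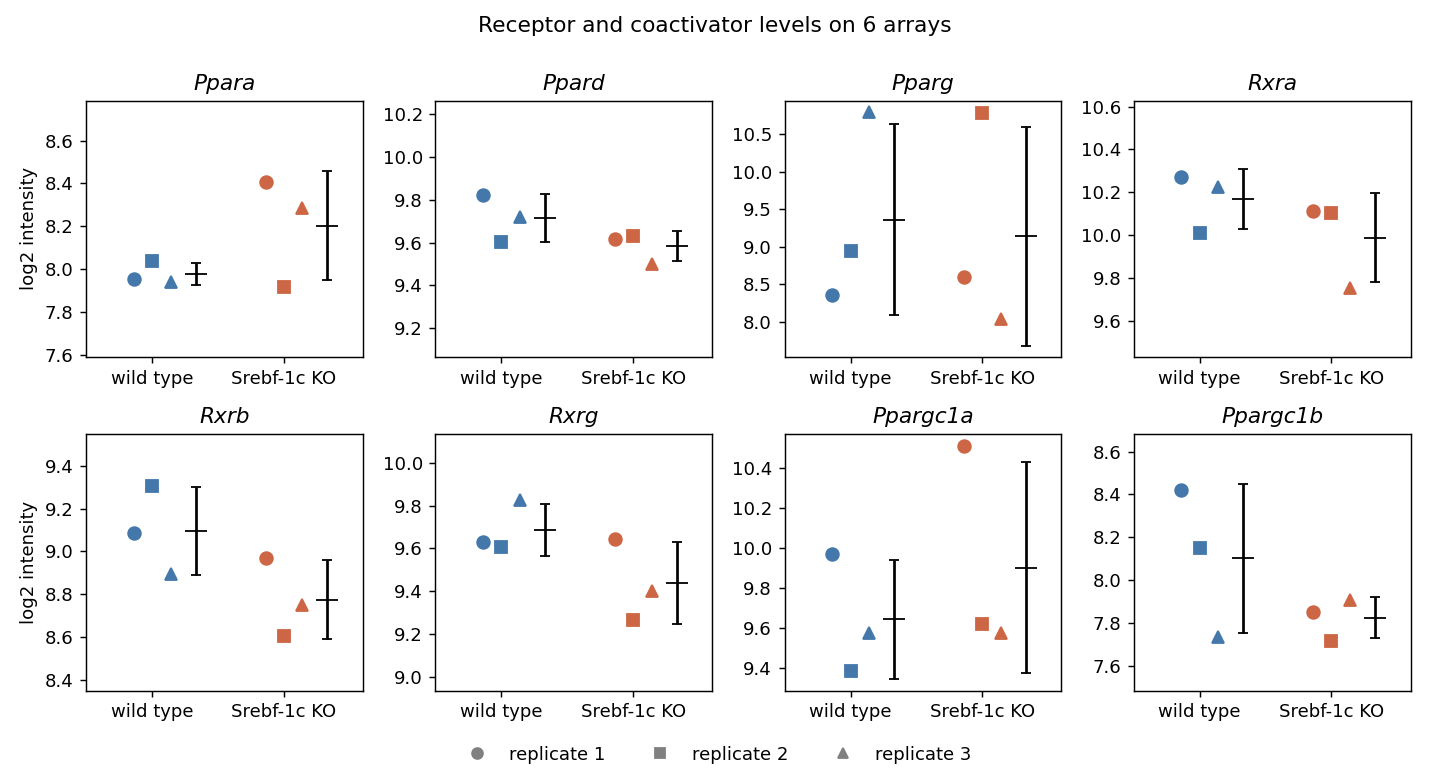
Log2 intensity (vertical axes, which differ between panels) of the 8 genes on the arrays of wild-type and Srebf-1c KO nerves, 3 of each. Points are arrays, with the replicate number as the symbol, and the black bar gives the mean and SD of each group. The groups overlap in every panel, and Pparg spans 2.76 on the log2 scale, more than any other panel.

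Ppara, the receptor of fat oxidation in liver, heart and muscle, had log2 intensities of 7.96, 8.04 and 7.94 in wild-type nerves and 8.41, 7.92 and 8.29 in KO nerves. KO replicates 1 and 3 lay above every wild-type array, and KO replicate 2 lay below them all. The log2 fold change was 0.23 ± 0.15 (SE, n = 3 per group) with a 95% interval of -0.13 to 0.58 and did not pass (limma adjusted p = 0.892). In fold terms that interval runs from 0.913 to 1.5. The wild-type values had an SD of 0.05 and the KO values an SD of 0.25. Leaving out KO replicate 2, the array with the high adipocyte score, gave 0.37, and leaving out KO replicate 1 gave 0.13.

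Ppard, the receptor found in most tissues, stood at 9.82, 9.60 and 9.72 in wild-type nerves and 9.62, 9.63 and 9.50 in KO nerves. These were the closest values of any member, with a range of 0.32 over the 6 arrays. Its log2 fold change was -0.13 ± 0.12 (SE), with an interval of -0.41 to 0.15 (limma adjusted p = 0.906). A second probe set, shared with another transcript and left out of the tests, gave a difference of -0.16.

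Pparg, the master regulator of adipocytes, varied far more between arrays of one genotype than between genotypes. On the log2 scale it read 8.35, 8.94 and 10.79 in wild-type nerves and 8.60, 10.78 and 8.03 in KO nerves. Wild-type replicate 3 and KO replicate 2 were high and nearly equal, and the other 4 arrays were low. These were the same arrays on which the adipocyte score was high: the summed intensity of the 16 markers ran from 25629 to 58477 in wild type and from 21763 to 57486 in KO nerves, and no marker was at 0. Sncg, a bright marker of that list, did not share the pattern. It read 12.61, 12.60 and 12.59 in wild-type nerves and was highest in KO on replicate 3. Scores of other marker lists were also highest on wild-type replicate 3 and KO replicate 2. The fibroblast and perineurial score was 0.46 on wild-type replicate 3 and 0.51 on KO replicate 2, and the endothelial and macrophage score 0.46 and 0.35. Both scores were below 0 on the other 4 arrays. Single genes of the fibroblast list differed: Dpt was high on both arrays (12.85 and 12.78). Col1a1, Col1a2, Dcn and Lum were highest in wild type on replicate 2, and Dcn and Lum were highest in KO on replicate 3. The log2 fold change of Pparg was -0.22 ± 0.84 (SE), with an interval of -2.19 to 1.75 (limma adjusted p = 0.984). With the adipocyte score as a covariate the standard error fell to 0.17 and the log2 fold change was 0.10, with an interval of -0.30 to 0.51. The score's list does not hold Pparg, but 6 of its genes are also listed here as PPAR gamma targets. The score is therefore not independent of Pparg, and the covariate cannot isolate an effect of genotype on it. The direction of the Pparg difference turned with single arrays: it was 0.49 without wild-type replicate 3, 0.33 without KO replicate 3 and 0.046 without KO replicate 1, against -1.05 without KO replicate 2 and -0.73 without wild-type replicate 1.

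**Figure D2:**
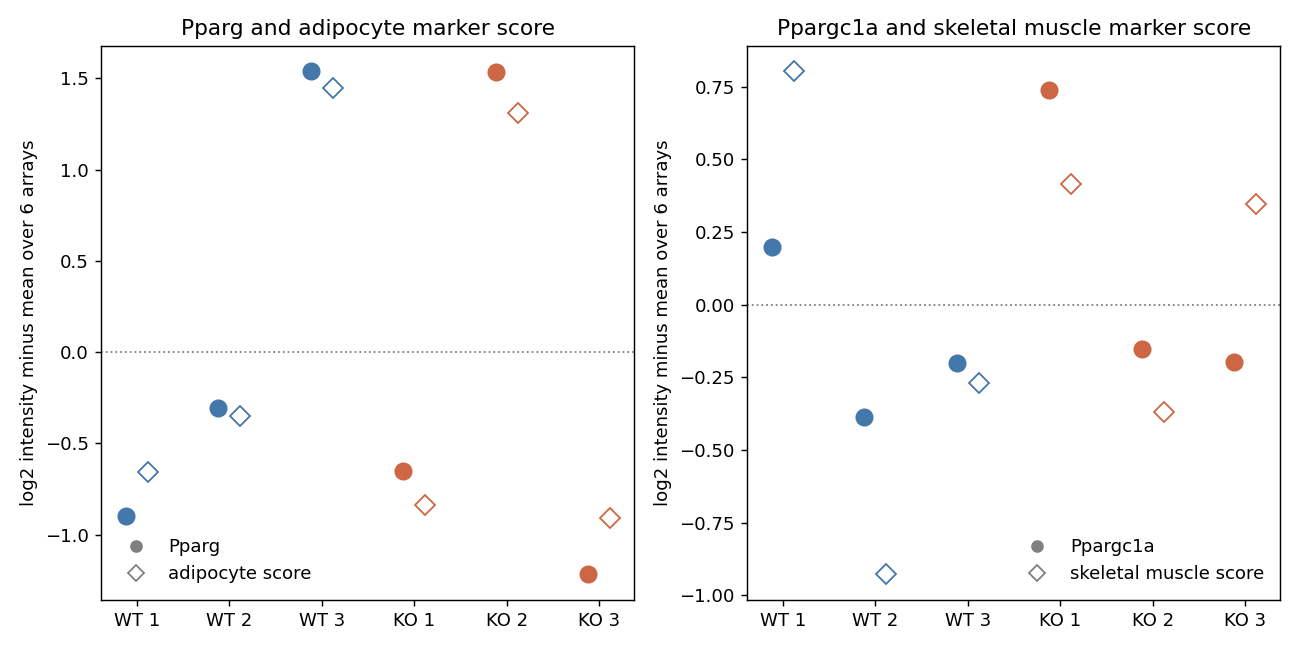
Left, log2 intensity of Pparg minus its mean over the 6 arrays (filled circles) beside the adipocyte marker score (open diamonds) on each array. Right, the same for Ppargc1a and the skeletal muscle marker score. Pparg and the adipocyte score are both high on wild-type replicate 3 and KO replicate 2, while Ppargc1a is highest on KO replicate 1 and the muscle score on wild-type replicate 1.

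The genes most like Pparg across the 6 arrays were ranked by the mean absolute difference between log2 intensities, each centred on its own mean. The nearest was Pde3b, the phosphodiesterase through which insulin restrains fat breakdown in adipocytes, at 0.15. Trarg1, which acts on the traffic of the glucose transporter GLUT4 in fat cells and is itself 1 of the adipocyte markers, followed at 0.17, and Lrg1, a secreted glycoprotein, at 0.19. Pde3b had values of 7.67, 8.57 and 10.06 in wild-type nerves and 7.51, 10.12 and 7.26 in KO nerves, high on the same arrays as Pparg. None of these genes passed the test between genotypes (limma adjusted p = 0.964 for Pde3b, 0.974 for Trarg1 and 0.990 for Lrg1).

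The RXR genes all had a lower mean in KO, and none passed. Rxra, the form widely used in liver, skin and fat, stood at 10.27, 10.01 and 10.22 in wild-type nerves and 10.11, 10.10 and 9.75 in KO nerves. KO replicate 3 was the lowest array, and the others overlapped. Its log2 fold change was -0.18 ± 0.15 (SE, limma adjusted p = 0.901), and -0.060 without KO replicate 3. Rxrb, the ubiquitous form, stood at 9.09, 9.31 and 8.90 in wild-type nerves and 8.97, 8.61 and 8.75 in KO nerves. KO replicates 2 and 3 lay below every wild-type array, and KO replicate 1 lay above wild-type replicate 3. Rxrb had the smallest p-value of the 8 members, with a log2 fold change of -0.32 ± 0.16 (SE), an interval of -0.69 to 0.049 and a limma adjusted p = 0.867. With the adipocyte score as a covariate the interval was -0.69 to -0.03, and the adjusted p was 0.788. By unadjusted p, Rxrb ranked 2016 among the 22180 genes.

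Rxrg, a form enriched in muscle, brain and some glia, stood at 9.63, 9.60 and 9.83 in wild-type nerves and 9.64, 9.27 and 9.40 in KO nerves. KO replicates 2 and 3 lay below every wild-type array, and KO replicate 1 lay among them. Its log2 fold change was -0.25 ± 0.14 (SE), with an interval of -0.59 to 0.08 (limma adjusted p = 0.873). With the muscle score as a covariate it was -0.27, and without the 2 arrays with the highest adipocyte scores it was -0.10.

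Ppargc1a, the coactivator induced by cold, fasting and exercise, had a high value on a single KO array. On the log2 scale it read 9.97, 9.39 and 9.57 in wild-type nerves and 10.51, 9.62 and 9.57 in KO nerves. KO replicate 1 stood above every other array, wild-type replicate 1 came next, and KO replicates 2 and 3 lay within the wild-type range. The log2 fold change was 0.26 ± 0.28 (SE), with an interval of -0.40 to 0.92 (limma adjusted p = 0.930), and without KO replicate 1 it was -0.046. Muscle markers were high on some of the same arrays: the muscle score was 0.80 on wild-type replicate 1, 0.41 on KO replicate 1 and 0.35 on KO replicate 3, and the summed intensity of the 22 markers ran from 57814 to 153741 in wild type and from 84427 to 142884 in KO nerves, with none at 0. KO replicate 3, with a muscle score of 0.35, had a Ppargc1a level within the wild-type range. Its summed muscle intensity (104867) was below that of wild-type replicate 3 (106139), whose score was -0.27. The part of muscle tissue in the Ppargc1a values was not tested beyond the covariate. With the muscle score as a covariate the log2 fold change was 0.15 ± 0.25 (SE).

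The genes most like Ppargc1a over the arrays, by the same measure, were Ybx2, a Y-box nucleic acid-binding protein, at 0.08, Ndufa9, a subunit of respiratory complex I, at 0.09 and Cmss1 at 0.10. Ndufa9 stood at 10.69, 10.21 and 10.32 in wild-type nerves and 11.06, 10.32 and 10.50 in KO nerves, again highest on KO replicate 1 and next on wild-type replicate 1. Neither Ndufa9 (limma adjusted p = 0.922) nor Ybx2 (0.909) passed the test.

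Ppargc1b, the sister coactivator that also raises mitochondrial genes, went the other way from Ppargc1a in its mean. It stood at 8.42, 8.15 and 7.73 in wild-type nerves and 7.85, 7.72 and 7.91 in KO nerves. Wild-type replicates 1 and 2 lay above every KO array, and wild-type replicate 3, an array with a high adipocyte score, lay next to the lowest KO value. The log2 fold change was -0.28 ± 0.19 (SE), with an interval of -0.72 to 0.16 (limma adjusted p = 0.892). It was -0.46 without wild-type replicate 3 and -0.12 without wild-type replicate 1. The difference between the responses of the coactivators was not tested.

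**Figure D3:**
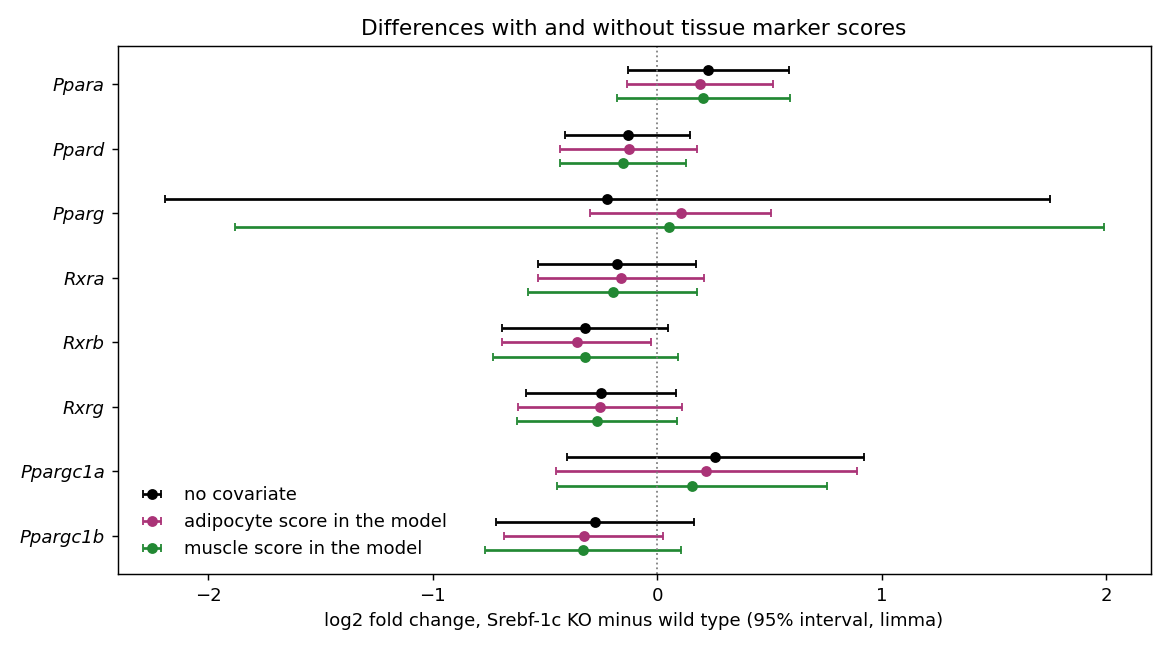
Log2 fold change (KO minus wild type, horizontal axis) of the 8 genes with 95% intervals from limma, with no covariate (black) and with the adipocyte (magenta) or muscle (green) marker score in the model. The interval of Pparg shrinks from -2.19 to 1.75 to -0.30 to 0.51 with the adipocyte score, and no adjusted p passes 0.05 in any of the 3 models.

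The promoters of the members were searched for the core motif AGGTCA on both strands, in windows from 250 bases before to 50 bases after each RefSeq start site (GRCm38.p6). The table held 12 windows of 7 members. The motif lay in 4 of the 12 windows (33.3%), against 16.3% of 32851 windows of all genes. The 4 windows belong to Pparg, at 2 of its 3 start sites, and to Rxra and Rxrg, at 1 of 2 start sites each. They are shown because they carry, in the receptor genes, the core motif of which PPAR and RXR pairs read a direct repeat. They do not carry the repeat itself. Capitals mark the motif or its reverse complement, TGACCT.
Pparg, chr6:115361076-115361161, plus strand: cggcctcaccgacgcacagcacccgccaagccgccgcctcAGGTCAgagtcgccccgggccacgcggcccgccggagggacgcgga
Pparg, chr6:115362300-115362385, plus strand: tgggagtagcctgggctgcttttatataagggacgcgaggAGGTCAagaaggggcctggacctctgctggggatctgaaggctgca
Rxra, chr2:27709165-27709289, plus strand: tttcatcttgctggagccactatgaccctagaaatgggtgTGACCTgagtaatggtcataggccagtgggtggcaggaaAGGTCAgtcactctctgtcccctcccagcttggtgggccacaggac
Rxrg, chr1:167618137-167618222, plus strand: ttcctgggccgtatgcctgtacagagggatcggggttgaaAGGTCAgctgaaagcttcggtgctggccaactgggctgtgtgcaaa

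The full repeat AGGTCANAGGTCA, which holds the core motif 2 times, lay in 0 of the 12 member windows and in 0.0396% of all windows. The sterol response element of SREBPs, searched as TCACNCCAC, lay in 0 of the 12, against 1.24% of all windows. Among the genes of the pathway lists the full repeat was found once, in the promoter of Bco1, the enzyme that splits beta-carotene into the retinoid from which RXR and retinoic acid receptor ligands are made. It is shown as the sole match of the full repeat, on the reverse strand.
Bco1, chr8:117095769-117095861, plus strand: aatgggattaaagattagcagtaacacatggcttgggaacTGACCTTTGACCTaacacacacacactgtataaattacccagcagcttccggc
The log2 fold change of Bco1 was 0.11 ± 0.21 (SE, limma adjusted p = 0.970). A match is a run of letters, and binding was not measured. The arrays measure each gene as a whole, so the start sites of Pparg, Rxra and Rxrg cannot be told apart in these values.

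Target genes of PPAR alpha and PPAR delta had a higher mean in KO more often than all genes did, though none passed the adjusted test. The list was drawn up with earlier results of these data known, so its counts describe these arrays and are no independent support. Of 26 listed genes 22 were measured by a probe set with a single symbol, and 17 had a higher and 5 a lower mean, where 43.1% of all genes had a higher mean. The median log2 fold change was 0.21, beside -0.032 for all genes. In limma 4 had an unadjusted p under 0.05, all higher, where 5.83% of all genes passed in either direction. The study's criterion was met by 3 of these, Pdk4, Acot2 and Fgf21 (0.64% of all genes met it upward). Acot2 no longer met it with each gene's own spread in place of limma's moderated one, or without wild-type replicate 1 (0.59), KO replicate 1 (0.66) or KO replicate 3 (0.84). Fgf21 fell short of it with either the adipocyte (0.56) or the muscle score (0.55) in the model, and when wild-type replicate 2 (0.58), KO replicate 1 (0.52) or KO replicate 3 (0.47) was left out. Pdk4 met it in each of these settings. Further, the KO values lay above all wild-type values for 5 of 22 (4.08% of all genes). The 5 were Pdk4, Fgf21, Acot2, Fabp1 and Acaa1b. Of these, Fgf21, Fabp1 and Acaa1b were dim, so their separation is weaker evidence than that of brighter genes. Acaa1b ran from 5.50 to 5.95 on the log2 scale. Fabp1 read 4.48, 4.62 and 4.67 in wild-type nerves and 4.84, 5.92 and 4.80 in KO nerves. Its KO replicates 1 and 3 thus lay close to wild-type replicate 3. Among the members that did not follow, Plin2, a coat protein of lipid droplets, stood at -0.42 ± 0.20 (SE). The median was 0.24 with either the adipocyte or the muscle score in the model, and it stayed between 0.22 and 0.30 when single arrays were left out. Without the 2 arrays with the highest adipocyte scores 18 of the 22 were higher and the median was 0.28. Skeletal muscle markers moved the same way: 15 of 22 had a higher mean in KO with a median of 0.16 over all arrays, and 21 of 22 with a median of 0.26 without those 2 arrays. Their part in the result was not tested beyond the covariate. The motif AGGTCA lay in 9 of 21 promoter windows of 19 of these genes (42.9%), against 16.3% of all windows and 5.88% to 23.5% in the other 5 lists. The full repeat lay in 0 of the 21. The genes were listed as PPAR targets, so their share of motifs says nothing about the KO.

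**Figure D4:**
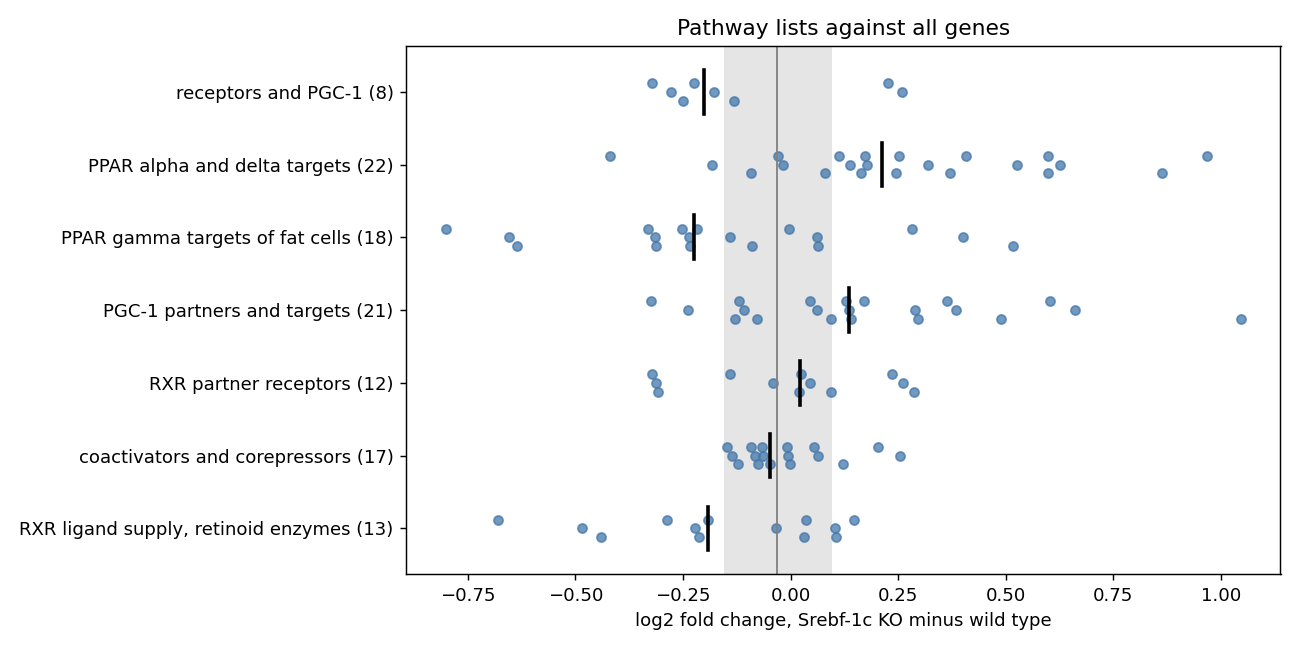
Log2 fold change (KO minus wild type, horizontal axis) of the 8 genes and of the 6 pathway lists, 1 point per measured gene. Black ticks are list medians, the grey line is the median of all genes and the grey band their middle quartiles. The median is 0.21 for the targets of PPAR alpha and delta. It is -0.20 for the mixed group of receptors and coactivators, of which Ppara (0.23) and Ppargc1a (0.26) have a higher mean in KO and the other 6 a lower one. No member passed the test.

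The 4 target genes with the smallest p-values were lowest in KO on replicate 2. Of the 8 members, 4 (Ppara, Rxrb, Rxrg and Ppargc1b) were lowest there, against 38.8% of all genes. The other 4 members were lowest on KO replicate 3, against 28.8% of all genes. Pdk4, the kinase that blocks pyruvate entry into the citric acid cycle, stood at 11.57, 11.44 and 11.35 in wild-type nerves and 12.96, 11.84 and 12.45 in KO nerves. Acot2, a mitochondrial acyl-CoA thioesterase, stood at 8.10, 8.86 and 8.97 in wild-type nerves and 9.91, 9.06 and 9.54 in KO nerves. Fgf21, a fasting hormone gene that was dim, stood at 5.70, 5.65 and 5.71 in wild-type nerves and 6.44, 5.88 and 6.54 in KO nerves. For each of these the groups did not overlap, and KO replicate 2 was the lowest KO array.
Fabp3, the fatty acid-binding protein of heart and muscle, stood at 9.04, 9.39 and 9.12 in wild-type nerves and 9.79, 9.39 and 9.96 in KO nerves, where KO replicate 2 fell within the wild-type range. Its dimmer probe set gave 0.18 in place of 0.53. The log2 fold changes were 0.97 ± 0.27 (SE) for Pdk4, 0.86 ± 0.29 for Acot2, 0.60 ± 0.19 for Fgf21 and 0.53 ± 0.18 for Fabp3, each with a limma adjusted p = 0.850. KO replicate 2 was the lowest KO array for 13 of the 22 targets (59.1%) and for 38.8% of all genes, a count made after the values were seen. That array also had the highest adipocyte score in KO.

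**Figure D5:**
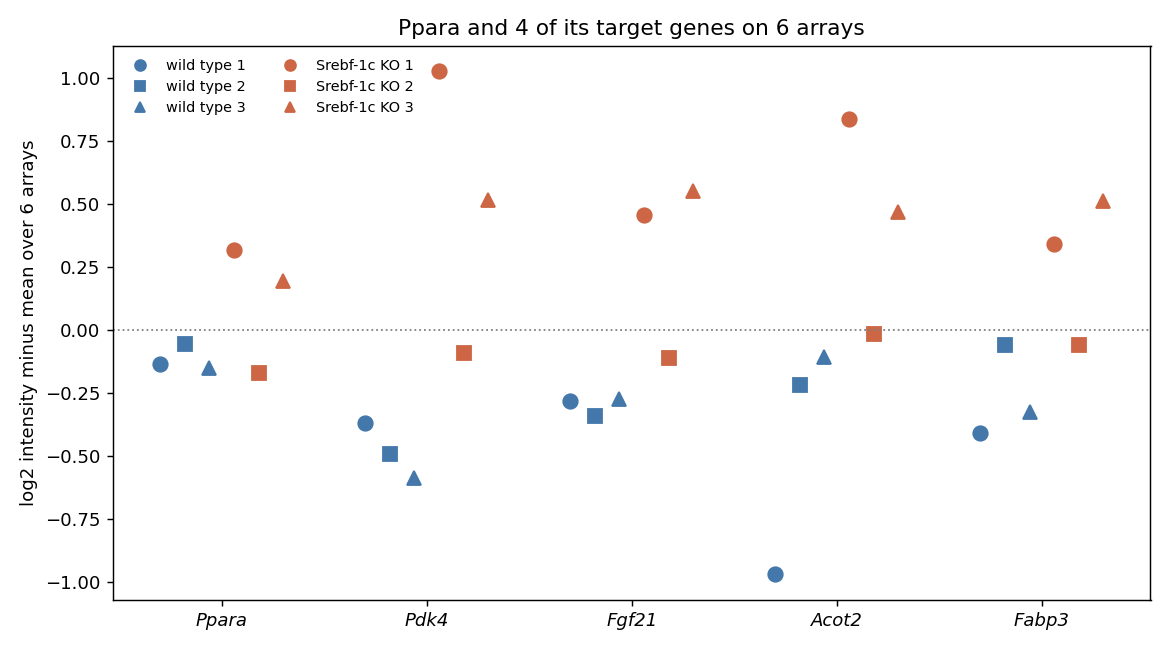
Log2 intensity minus the mean over the 6 arrays (vertical axis) of Ppara and of the 4 targets with the smallest p-values, with 1 point per array, coloured by genotype and shaped by replicate. KO replicates 1 and 3 lie above every wild-type array for all 5 genes, and KO replicate 2 is the lowest KO array for each. The 4 targets were picked for small p-values, so their separation of KO from wild type comes partly from the pick. Other targets, such as Plin2, did not share it, and a link of the targets to Ppara was not tested.

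Targets of PPAR gamma in fat cells did not move together between genotypes. Of 20 listed genes 18 were measured, 5 with a higher and 13 with a lower mean, where 56.9% of all genes had a lower mean. The median was -0.23. None met the study's criterion, which 1.19% of all genes met. The groups overlapped for each of the 18, while 12.3% of all genes had groups that did not overlap. Like Pparg, 15 of the 18 (83.3%) were highest on wild-type replicate 3 among wild-type arrays and on KO replicate 2 among KO arrays, where 14.2% of all genes and 4 of the 22 targets of PPAR alpha and delta were. This count was made after the values were seen. Plin1, the perilipin of the fat droplet, stood at 8.29, 9.12 and 11.25 in wild-type nerves and 7.69, 10.83 and 7.74 in KO nerves, high on the arrays where Pparg was high. Its log2 fold change was -0.80 ± 1.02 (SE, limma adjusted p = 0.942). Slc2a4, which encodes GLUT4 of fat and muscle, stood at 0.52 ± 0.44, Cidea, a droplet protein of brown fat, at -0.64 ± 0.53, and Agpat2, a triglyceride synthesis enzyme, at -0.33 ± 0.44. Without wild-type replicate 2 Slc2a4 was at 0.037 and Cidea at -0.05, and without wild-type replicate 1 they were at 0.86 and -1.10. Slc2a4 was also at 0.23 without KO replicate 1, and Cidea at -0.31 without KO replicate 3. The list shares 6 of its 18 genes with the adipocyte markers. Its median was -0.030 with the adipocyte score in the model, and it turned to 0.22 without wild-type replicate 3 and to 0.057 without KO replicate 3. It was -0.66 without KO replicate 2 and -0.59 without wild-type replicate 1.

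Partners and targets of the PGC-1 coactivators were measured for 21 of 21 listed genes, 15 with a higher and 6 with a lower mean, and the median was 0.13. Cox5b, a subunit of cytochrome c oxidase, was the 1 of 21 that met the study's criterion, at 1.05 ± 0.37 (SE, limma adjusted p = 0.850), against 0.64% of all genes upward. Its values were 9.39, 9.40 and 9.99 in wild-type nerves and 11.07, 9.78 and 11.07 in KO nerves, with KO replicate 2 inside the wild-type range. A dimmer probe set of Cox5b gave -0.22, and the mean of its probe sets gave 0.41. It no longer met the criterion with that mean, with each gene's own spread, or without wild-type replicate 1 (0.94) or 2 (0.95) or KO replicate 1 (0.83) or 3 (0.83). Cytochrome c, Cycs, stood at 0.60 ± 0.30, with -0.18 to 1.90 at its other probe sets, which may share sequence with pseudogenes, and the mitochondrial transcription factor gene Tfb2m stood at 0.30 ± 0.18. Cycs was at 0.34 without KO replicate 1 and 0.38 without wild-type replicate 2, and Tfb2m at 0.17 and 0.16. Pprc1, the third member of the PGC-1 family, was lower on each KO array (8.36, 8.35 and 8.24) than on every wild-type array (8.65, 8.85 and 8.44), at -0.33 ± 0.14 (SE, limma adjusted p = 0.850), and 8.21% of all genes had KO values below all wild-type values. With the muscle score in the model the list's median was 0.00433, and it was -0.083 without KO replicate 1 and -0.030 without wild-type replicate 2. It was 0.34, with 17 of 21 higher, when wild-type replicate 1 was left out, 0.24 when KO replicate 2 was, and 0.20 when KO replicate 3 was.

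Receptors that pair with RXR had no common direction. Of 13 listed genes 12 were measured, 7 with a higher and 5 with a lower mean, and the median was 0.021. The retinoic acid receptors were the lowest: Rarg stood at 8.46, 8.60 and 8.45 in wild-type nerves and 8.17, 8.25 and 8.17 in KO nerves, and Rara at 8.33, 8.58 and 8.32 in wild-type nerves and 8.06, 8.22 and 7.98 in KO nerves. For both, every KO array lay below every wild-type array, as for 8.21% of all genes. Their log2 fold changes were -0.31 ± 0.11 (SE) and -0.32 ± 0.13, each with a limma adjusted p = 0.850, and neither reached a fold change of 1.5. Rarb, chosen after its value was seen, stood at -0.31 ± 0.19 with overlapping groups. With either the adipocyte or the muscle score in the model Rarg and Rara kept a log2 fold change between -0.31 and -0.28. The bile acid and drug sensors Nr1i3 (0.26 ± 0.14) and Nr1i2 (0.24 ± 0.13) were dim, at percentiles 30.1 and 16.3 of mean intensity. For Nr1i3 every KO array lay above every wild-type array, as for 4.08% of all genes.

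Enzymes and binding proteins that supply retinoid ligands were measured for 13 of 14 genes, 8 with a lower and 5 with a higher mean, and the median was -0.19. Crabp2, which carries retinoic acid to its receptors, was lower on each KO array (7.77, 7.79 and 7.40) than on every wild-type array (8.69, 7.81 and 7.92). It was the 1 of 13 for which this held, against 8.21% of all genes. Its log2 fold change was -0.48 ± 0.25 (SE, limma adjusted p = 0.868). Wild-type replicate 2 and KO replicate 2 nearly met. Crabp1 stood at -0.29 ± 0.15, Aldh1a2, which makes retinoic acid, at -0.68 ± 0.44, and Cyp26a1, which degrades it and was dim, at -0.19 ± 0.12. Crabp2 was at -0.21 without wild-type replicate 1. Aldh1a2 ranged from -0.29 when KO replicate 3 was left out to -1.16 when KO replicate 2 was, and it was at -0.42 without wild-type replicate 1. The median of this list was -0.039 with the adipocyte and -0.044 with the muscle score in the model and 0.032 without KO replicate 1.

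General coactivators and corepressors of nuclear receptors showed the narrowest middle quartiles of the 6 lists, from -0.083 to 0.055. Of 19 listed genes 17 were measured, 5 with a higher and 12 with a lower mean, and the median was -0.047. None had an unadjusted p under 0.05, where 5.83% of all genes did. Tbl1xr1, of the corepressor complex, stood at 0.25 ± 0.15 (SE), the arginine methyltransferase gene Carm1 at 0.20 ± 0.13, Gps2, also of the corepressor complex, at -0.14 ± 0.11, and Ncoa1 at -0.09 ± 0.11. The KO arrays lay above all wild-type arrays for Tbl1xr1 and below them for Gps2, so that 2 of the 17 had groups that did not overlap, against 12.3% of all genes. Tbl1xr1 was at 0.12 without wild-type replicate 1.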

How the data were processed

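The deposited values are intensities of probe sets on 6 whole-transcript arrays, and their size shows a linear scale. The authors, per the design text, computed them with TAC and Partek Genomic Suite by the Robust Multichip Average, which corrects background, normalizes and combines probes. No software version is stated. The build mm8 is named in the submitters' processing notes. Log2 was taken with no pseudocount. Of 41077 probe sets, 23521 carried 1 symbol, and the brightest per gene was kept (22180 genes, no filter on dim genes). At most 0.117% of values were identical between any pair of arrays.

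Genes were fitted with limma 3.58.1 in R 4.3.3, two-sided, with Benjamini-Hochberg adjustment over all 22180, after a test on simulated data. The small number of arrays limits precision, and the lowest exact permutation p for 3 against 3 is 0.1. Named were the members, Srebf1, the 4 genes of smallest p in each of 6 pathway lists, and the 3 genes most like each member spanning at least 1 on the log2 scale. Excepted from the last were predicted genes, olfactory and vomeronasal receptors and small RNA genes. Members and lists were chosen with earlier results of these data known. Alternatives were other scalings, priors, tests, filters, probe set rules and tissue covariates, a replicate block and leaving out arrays. Promoter sequences are from RefSeq (GRCm38.p6).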

Additional observations from a re-analysis of the deposited data

How the results depend on the processing

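No member passed an adjusted p of 0.05 or the study's criterion in any of the settings run, and Ppara, Ppard, the RXR genes and Ppargc1b kept their direction in all 18 alternatives. Pparg turned to 0.10 with the adipocyte score and 0.054 with the muscle score as a covariate. With each array left out in turn Pparg ran from -1.05 to 0.49, Ppargc1a from -0.046 to 0.42, Agpat2 from -0.76 to 0.20 and Plin1 from -1.84 to 0.047. Agpat2 was 0.10 without the 2 arrays with the highest adipocyte scores, called fat-rich below for that score alone. The median of PPAR alpha and delta targets ran from 0.22 to 0.30 and that of RXR partner receptors from -0.027 to 0.028 with arrays left out, and the latter was 0.074 after quantile normalization over the tested genes. Over all genes, 1 passed an adjusted p of 0.05, Srebf1. The count was 0 with the replicate block, the methods' ANOVA, quantile normalization, arrays at 1 median, either covariate or without the 2 fat-rich arrays, and 0 to 1 with arrays left out, where the 1, without KO replicate 2, was Vmn1r157 and not Srebf1. The study's criterion took 265 genes, 142 higher and 123 lower (188 and 101 with arrays at 1 median). It took 138 with the methods' ANOVA, 34 at a fold limit of 2, 150 and 89 without the dimmest 25% and 50% of genes, 819 without the 2 fat-rich arrays and 231 to 552 with arrays left out. With the replicate block it took 288. Same-numbered arrays correlated at 0.117, 0.012 and -0.233 in their deviations from the group means, so the number is not read as a pairing. The cause of these changes was not tested, apart from fewer genes tested under the filters. Leaving out the fat-rich arrays and all alternatives for the lists were chosen after seeing the data.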
